A study of Mus musculus with 56 samples.

Results

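The comparison described here is the difference between the transcriptional effect of Dohh deletion and that of Odc deletion in TH17 cells. It rests on 14 of the 55 RNA-seq libraries analysed here, all from CD4+ T cells of C57BL/6 mice isolated from spleen and lymph nodes by negative selection and cultured with anti-CD3, anti-CD28 and IL-2 under TH17 conditions (anti-IFN-γ, anti-IL-4, IL-6, TGF-β and IL-1) until day 4. A first table of gene counts holds 4 libraries labelled Odc-/- and 4 WT libraries, and the other holds 3 libraries labelled Dohh-/- and 3 WT libraries. In the labelled libraries the mice carried floxed Odc or floxed Dohh alleles together with a Cre transgene under Cd4 control, which is on in all developing alpha-beta T cells and so also marks the CD8 lineage, and WT mice lacked Cre. The effect of a deletion is here the log2 fold change (log2FC) of the labelled against the WT libraries within a table, and the difference is the Dohh effect minus the Odc effect, so that a constant shift between the tables cancels. A positive difference means that the Dohh effect was more positive. Of 47937 genes listed, 11489 were expressed in the TH17 libraries of both tables and were tested. A further 288 genes with at least 500 counts in 1 table and at most 5 in the other were left out.

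Polyamines are small cations made from ornithine by ornithine decarboxylase, the product of Odc. Spermidine, a polyamine, donates the group with which deoxyhypusine synthase (DHPS) and deoxyhypusine hydroxylase (DOHH) convert a lysine of the translation factor eIF5A into the amino acid hypusine. Odc thus acts at the start of the route and Dohh at its last step, and polyamines have many uses in the cell besides hypusine. TH17 cells are the helper T cells that make IL-17A and IL-17F.

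The labels were first checked on the targeted genes. Odc1, as Odc is written in the annotation, had 609, 578, 468 and 514 CPM (counts scaled to a common library total) in libraries labelled Odc-/- and 664, 664, 727 and 843 CPM in their WT libraries, which do not overlap (log2FC -0.42, adjusted p = 0.0306, edgeR). Dohh had 71.4, 50.7 and 56.8 CPM in libraries labelled Dohh-/- and 48.6, 37.3 and 43.6 CPM in their WT libraries, and every labelled library was above every WT library (log2FC 0.46, adjusted p = 0.0351, edgeR). Counts are summed over all exons, so these values do not show the floxed exons apart, and the genotypes are given below as labelled.

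Summed markers of myeloid cells, of basophils and mast cells and of gamma-delta T cells were higher in the libraries labelled Dohh-/- than in their WT libraries. Summed over 16 myeloid markers, libraries labelled Dohh-/- held 686, 10530 and 13870 CPM in replicates 1, 2 and 3, against 46.5 to 50.5 CPM in their WT libraries. In the Odc table the sums were 60.9 to 679.9 CPM in labelled and 24.4 to 61.6 CPM in WT libraries. Replicates 2 and 3 of Dohh-/-, and replicate 3 of Odc-/- in its own table, thus stood apart. Markers of basophils and mast cells (14 genes) summed to 429 to 1605 CPM in Dohh-/- and 21.3 to 30.1 CPM in WT, and to 72.3 to 375 and 34.4 to 53.8 CPM in the Odc table. Gamma-delta T cell markers (8 genes, led by Trdc, the constant region of the delta chain) summed to 985 to 1251 CPM in Dohh-/-, 48.3 to 72.9 in its WT, 309 to 612 in Odc-/- and 26.1 to 73.2 in its WT, with no overlap between labelled and WT libraries in either table. For Dohh, 14 of the 16 myeloid, 13 of the 14 basophil and mast cell and 7 of the 8 gamma-delta markers were higher in every Dohh-/- library than in every WT library, and for Odc 8, 9 and 6 were. Itgam, a defining myeloid marker, was at 0 counts in every TH17 library of the Dohh table, whereas Lyz2 and Csf1r were detected in all 14 libraries. In the Odc table Itgam had 1.16 to 2.65 CPM in WT and 2.23 to 11.8 CPM in Odc-/-. Its 0 thus went with the table and not with the genotype, and whether the tables were counted alike for Itgam was not tested. B cell markers (11 genes) summed to 450.5 to 522 CPM in Dohh-/-, 279 to 297 in its WT, 118 to 175 in Odc-/- and 94.2 to 117 in its WT. Ighm, the heavy chain of IgM, made up most of them, at 417, 467 and 386 CPM in Dohh-/- and 235, 253 and 268 in its WT. Only 2 of the 11 were higher in every Dohh-/- library than in every WT library, Ebf1 was lower in every one, and Ms4a1, which defines B cells, was at most 1.53 CPM in any library. Erythroid markers (9 genes) summed to 15.0 to 83.4 CPM in Dohh-/- and 6.08 to 7.48 in its WT, with 4 of the 9 higher in every Dohh-/- library, and to 1.15 to 4.25 CPM in Odc-/- and 2.73 to 3.60 in its WT, where 3 of the 4 Odc-/- libraries were below every WT library. T cell identity genes (16) summed to 5825 to 7534 CPM in Dohh-/-, 7831 to 8091 in its WT, 5949 to 7262 in Odc-/- and 6243 to 7497 in its WT. Of the 16, 2 (Cd3g and Thy1) were higher and 7, with Cd5, Cd28 and Trac among them, lower in every Dohh-/- library than in every WT library. Cd4, the coreceptor that names the cells, had 86.8, 71.5 and 45.5 CPM in Dohh-/- and 876, 879.5 and 852 CPM in WT, against 562, 265, 272 and 332 CPM in Odc-/- and 719, 691, 764 and 433 CPM in its WT (difference -2.81, SE 0.39, adjusted p = 0.000285, edgeR). Libraries labelled Dohh-/- were thus far below the others in Cd4, and replicate 4 of the WT libraries of the Odc table was the lowest of its group. In bulk RNA, fewer cells of a type and less RNA per cell cannot be told apart. The counts below were also computed with replicate 1 as the only Dohh-/- library, an alternative chosen after the data were seen, in which the lone library is assumed to vary like the other groups.

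**Figure D1:**
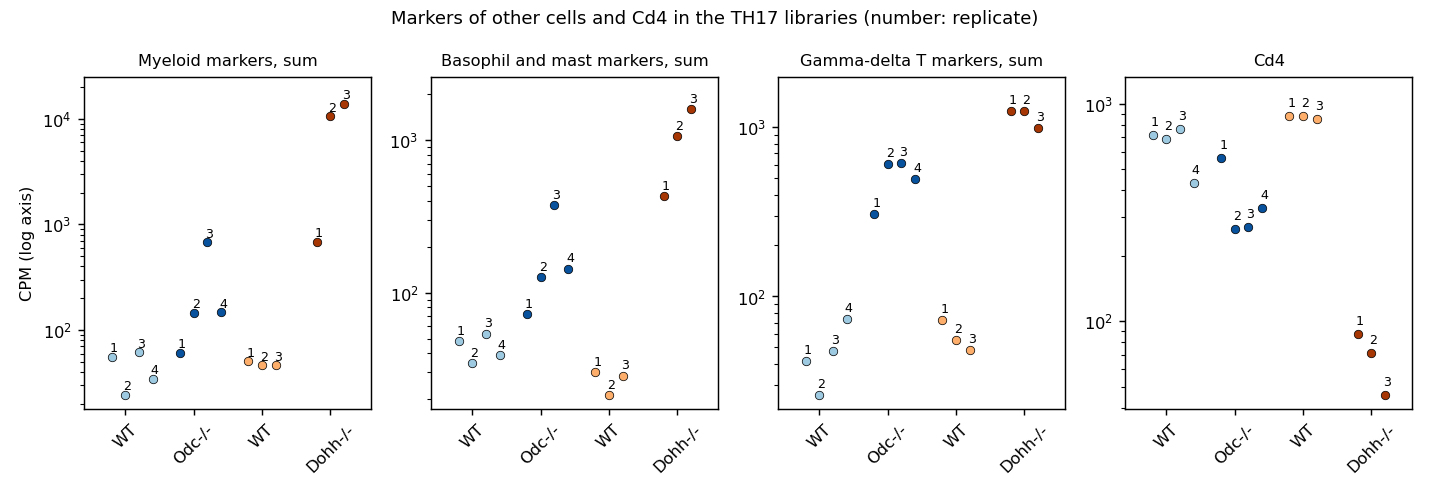
Level in CPM, on a log axis, of summed markers of myeloid cells, of basophils and mast cells and of gamma-delta T cells, and of Cd4, in each of the 14 TH17 libraries. Each point is a library and carries its replicate number. Myeloid sums of Dohh-/- replicates 2 and 3 lie far above replicate 1, and Cd4 is lowest in the 3 Dohh-/- libraries.

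The difference of effects passed the test, at more than 2-fold and an adjusted p-value below 0.05, for 1488 genes (13.0% of those tested). It was more positive with Dohh deletion for 819 genes (7.13%) and more negative for 669 genes (5.82%), while the median difference over all genes was 0.05. For 726 of them the Dohh effect alone passed, for 167 the Odc effect alone, for 397 both passed in the same direction and the Dohh effect was the larger, for 9 the Odc effect was the larger, and for 7 neither effect passed on its own. The remaining 182 genes (1.58% of those tested) were opposed, meaning that both effects passed and had opposite signs. Of these, 68 (0.592% of genes tested) were higher without Dohh and lower without Odc, and 114 (0.992%) were lower without Dohh and higher without Odc. Dohh effects were also larger across genes, with an SD of 1.32 on the log2 scale against 0.78 for Odc effects. With replicate 1 as the only Dohh-/- library, 552 genes were more positive and 665 more negative, which moves the split from 55.0% to 45.4% more positive, and 76 and 125 genes were opposed. Of the 182 opposed genes, 117 were opposed in that fit too, and 159 passed the difference test in the same direction. When each of the 14 libraries was left out in turn, 944 of the 1488 calls of the difference were kept every time, as were those of 165 of the 182 opposed genes. Opposition itself was kept less often, for 117 (without Odc-/- replicate 2) to 166 (without Dohh-/- replicate 1) of the 182 in a single such fit. The count higher without Dohh was 41 without WT replicate 3 and 45 without WT replicate 1 of the Odc table, and 110 and 103 without Dohh-/- replicates 1 and 3, and the count lower without Dohh was 72 without Odc-/- replicate 2. With limma's voom the counts were 188 and 185, and with each own effect also above 2-fold 14 and 45.

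**Figure D2:**
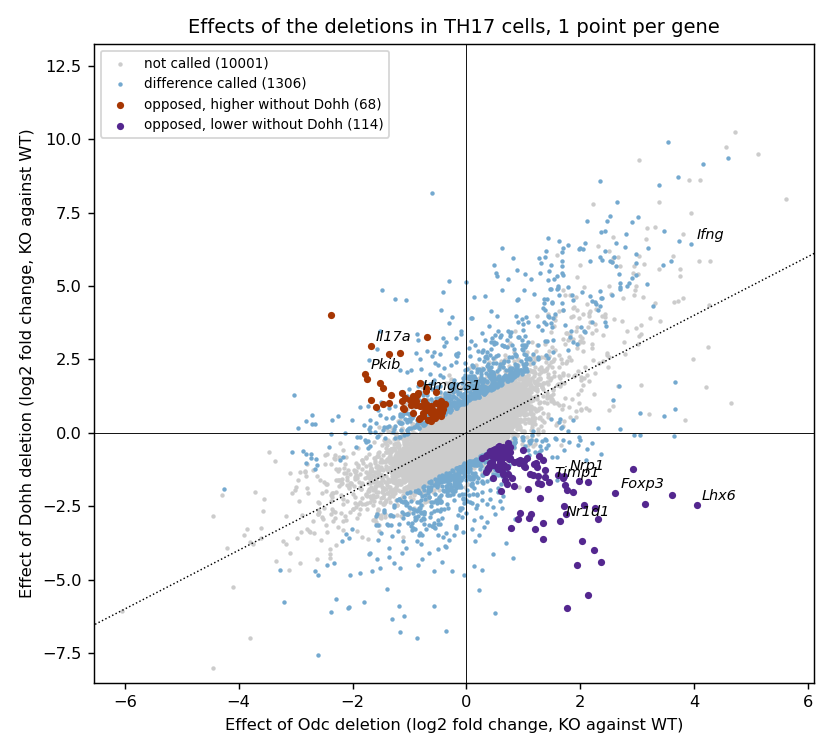
Effect of Dohh deletion against effect of Odc deletion (log2FC, labelled against WT) for the 11489 genes tested, 1 point per gene, with equal effects on the dotted line. Opposed genes fill the upper left (68 genes) and lower right (114 genes), where Il17a and Foxp3 lie.

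Among genes higher without Dohh and lower without Odc, Il17a, the signature TH17 cytokine, had the largest difference of the 6 named by the size of their smaller effect. Il17a (chr1:20730905-20734496 in GRCm38) had 138, 54.8, 152 and 73.8 CPM in Odc-/- and 325, 271, 411 and 334 CPM in the WT libraries of that table. In the Dohh table it had 392, 185 and 158 CPM in Dohh-/- and 40.2, 31.3 and 23.1 CPM in WT. The groups do not overlap in either table, and the labelled libraries are the low ones with Odc and the high ones with Dohh deletion. The effects were log2 -1.68 without Odc and 2.96 without Dohh, a difference of 4.64 (SE 0.55, adjusted p = 0.000117, edgeR). WT libraries of the tables themselves differed, by log2 -3.42 (Dohh table minus Odc table), and the source of that difference was not tested. The difference was 5.31 with Dohh-/- replicate 1 alone (adjusted p = 0.000337, edgeR). Gamma-delta T cell markers, given above, were higher in labelled libraries of both tables, and their part in the Il17a values was not tested.

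Pkib, an inhibitor of protein kinase A, had 3.93, 3.58, 6.37 and 3.69 CPM in Odc-/- against 19.5, 15.0, 16.4 and 8.88 in WT, and 9.72, 16.5 and 30.1 CPM in Dohh-/- against 4.37, 6.13 and 3.36 in WT. No labelled library overlaps its WT libraries in either table, and the difference was 3.78 (SE 0.53, adjusted p = 0.000272, edgeR), with WT levels log2 -1.63 apart. Further genes named by this rule were Kctd12 (log2 -1.52 without Odc and 1.68 without Dohh), Dgat2 (log2 -1.32 without Odc and 1.29 without Dohh) and Gpnmb (log2 -1.18 without Odc and 2.72 without Dohh). DGAT2 completes the synthesis of triglycerides, and Gpnmb encodes a glycoprotein abundant in macrophages. Gpnmb had 12.0, 57.1 and 48.3 CPM in Dohh-/- replicates 1, 2 and 3, and so was highest in the libraries with the most myeloid markers, whose part in its value was not tested. Dgat2 had 8.51, 17.6 and 29.3 CPM in the same libraries against 7.02, 8.11 and 7.23 in WT. It too was highest in replicates 2 and 3, with replicate 1 close to WT, and the part of myeloid cells in its value was not tested. Most of the exon length of Kctd12 (62.8%) overlaps another annotated gene on the opposite strand, and WT levels of Kctd12 were log2 -3.26 and of Gpnmb log2 -1.29 apart between the tables.

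**Figure D3:**
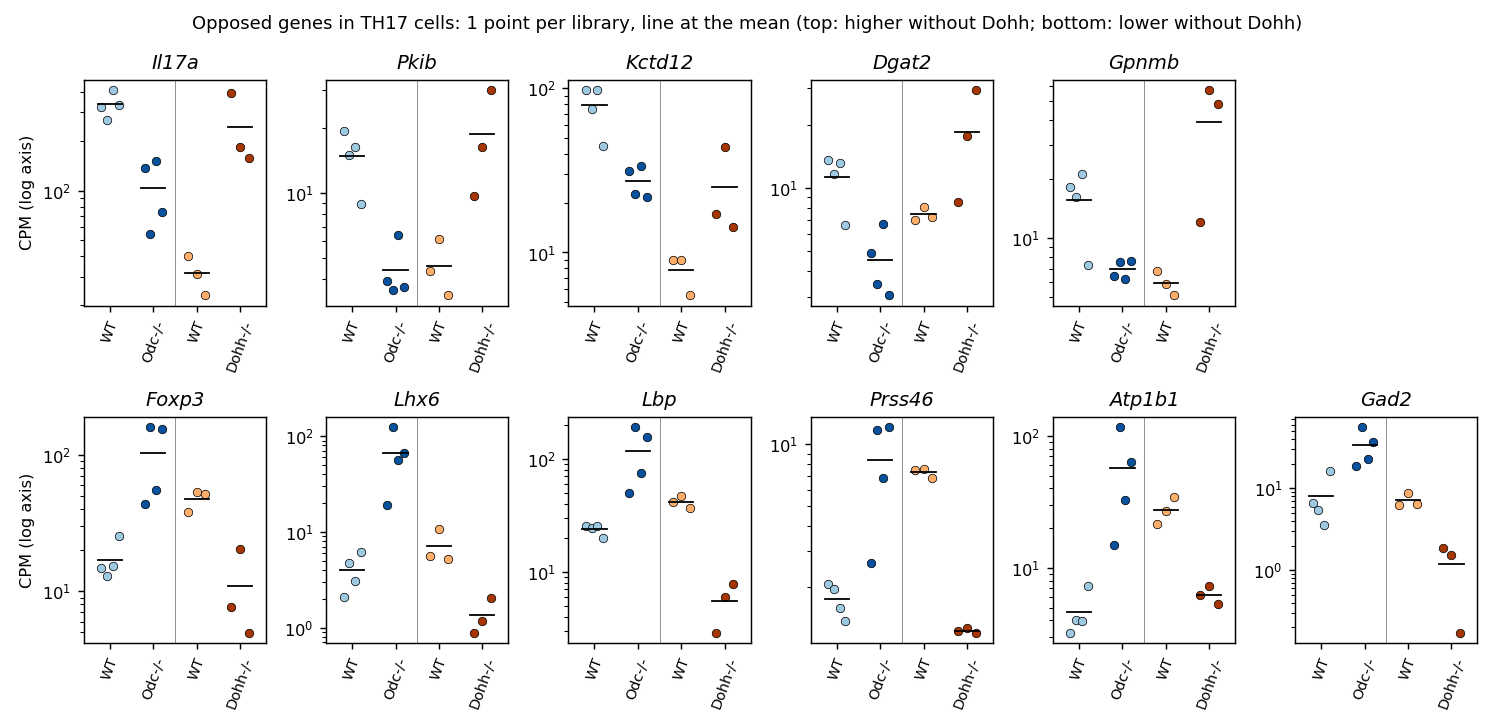
Expression of opposed genes named by the size of their smaller effect, in CPM on a log axis, with 1 point per library and a line at the group mean. In the upper row (higher without Dohh) labelled libraries lie below WT in the Odc table, with some overlap for Dgat2 and Gpnmb, and above WT in the Dohh table, and in the lower row the directions are exchanged without overlap.

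Among genes lower without Dohh and higher without Odc was Foxp3, which encodes the transcription factor of regulatory T cells (chrX:7573644-7595245 in GRCm38). Foxp3 had 43.5, 160.2, 55.7 and 156 CPM in Odc-/- and 14.7, 13.0, 15.3 and 25.4 CPM in WT, and 7.62, 20.3 and 4.96 CPM in Dohh-/- and 38.2, 53.3 and 51.6 CPM in WT. No labelled library overlaps its WT libraries, and the labelled libraries are the high ones with Odc and the low ones with Dohh deletion. The effects were log2 2.60 without Odc and -2.06 without Dohh, a difference of -4.67 (SE 0.74, adjusted p = 0.000994, edgeR), with WT levels log2 1.50 apart, and 18.6% of its exon length overlaps other annotated genes. Lhx6, a LIM homeobox factor known from the nervous system, had the most negative difference of the named genes, with 19.2, 124, 55.7 and 65.9 CPM in Odc-/- against 2.07, 4.74, 3.04 and 6.15 in WT and 0.884, 1.17 and 2.05 CPM in Dohh-/- against 5.65, 10.7 and 5.23 in WT. Its groups are also separate in both tables (log2 4.04 without Odc and -2.46 without Dohh, difference -6.51, SE 0.87, adjusted p = 0.000294, edgeR). Lbp, which encodes lipopolysaccharide-binding protein, had 49.5, 191, 75.2 and 156 CPM in Odc-/- against 25.4, 24.6, 25.3 and 19.7 in WT, and 2.87, 5.94 and 7.70 CPM in Dohh-/- against 41.5, 46.9 and 36.5 in WT, again without overlap (difference -5.26, SE 0.60, adjusted p = 9.33e-05, edgeR).

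Atp1b1, a subunit of the sodium pump, showed log2 3.61 without Odc and -2.11 without Dohh, Prss46, a serine protease gene, log2 2.25 without Odc and -2.56 without Dohh, and Gad2, a glutamate decarboxylase of neurons, log2 2.06 without Odc and -2.46 without Dohh. WT levels of Atp1b1 were log2 2.56 and of Prss46 log2 1.94 apart between the tables. The other named genes with the most negative differences were Nr1d1 and Angptl2. Nr1d1 encodes the circadian repressor REV-ERBα (log2 1.65 without Odc and -3.01 without Dohh). Angptl2 is a secreted angiopoietin-like protein (log2 1.76 without Odc and -2.75 without Dohh, WT levels log2 1.13 apart). Nr1d1 had 7.59, 16.1, 13.2 and 14.9 CPM in Odc-/- and 3.45, 4.63, 4.16 and 4.21 in WT, and 4.64, 3.24 and 1.71 CPM in Dohh-/- and 22.8, 28.6 and 28.5 in WT, so that its groups were separate in both tables, and its WT levels were log2 2.63 apart. Among called protein-coding genes with a mean count of at least 10 in each group, the 8 with the most negative difference were all opposed. Each of them kept its call when any of the 14 libraries was left out. Per1, another clock gene, was looked at after its values were seen and was opposed as well (log2 0.47 without Odc and -1.53 without Dohh, WT levels log2 2.03 apart, difference -2.00, adjusted p = 6.56e-06, edgeR).

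The TH17 program was split. Of 26 genes tested, 5 were more positive with Dohh deletion (19.2%, against 7.13% of all genes) and 9 more negative (34.6%, against 5.82%), with a median difference of -0.32. The more positive members included the cytokines themselves. Il17f had 822, 613, 929 and 573 CPM in Odc-/- and 1387, 1451, 1433 and 1474 in WT, without overlap, and 357, 236 and 201 CPM in Dohh-/- and 231, 278 and 205 in WT, which overlap. Only its Odc effect passed (log2 -0.97 without Odc and 0.15 without Dohh, difference 1.12, SE 0.28, adjusted p = 0.00945, edgeR), and its WT levels were log2 -2.60 apart. Without Dohh-/- replicate 1 its difference was 0.85 and no longer above 2-fold. The receptors for IL-1 and IL-23, which sustain TH17 cells, followed. Il1r1 (log2 -1.37 without Odc and 0.24 without Dohh) and Il23r (log2 -1.72 without Odc and -0.27 without Dohh) passed with Odc deletion alone, although the Il23r difference (1.45, adjusted p = 0.034, edgeR) was kept in 5 of the 14 fits that left out a library, with adjusted p up to 0.0802. Their WT levels were log2 -2.30 and -2.02 apart. Cxcr6, a chemokine receptor of tissue T cells, rose in both and more without Dohh (log2 1.03 without Odc and 3.31 without Dohh).

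The transcription factors Maf and Ahr were more negative with Dohh deletion. Maf, a factor that takes part in TH17 differentiation, had 267, 324, 238 and 310.4 CPM in Odc-/- and 679, 609, 694 and 498 in WT, and 52.4, 52.5 and 24.1 CPM in Dohh-/- and 336, 337 and 298 in WT. It fell in both tables without overlap between labelled and WT libraries, and further without Dohh (log2 -1.12 without Odc and -2.90 without Dohh, difference -1.78, SE 0.30, adjusted p = 0.000942, edgeR), and for Ahr, a ligand-activated factor, only the Dohh effect passed (log2 -0.53 without Odc and -1.71 without Dohh, WT levels log2 -1.09 apart, difference -1.19). The Ahr difference was -0.93 without Dohh-/- replicate 3 and then not above 2-fold. The IL-6 receptor chains Il6ra (log2 -1.05 without Odc and -2.75 without Dohh) and Il6st (log2 0.33 without Odc and -1.24 without Dohh) and the cytokine Il24 (log2 1.51 without Odc and -0.81 without Dohh, WT levels log2 -3.04 apart) were also more negative with Dohh deletion. The chemokine Ccl20, its receptor Ccr6 and the factor Irf4 were further negative members (-2.03, -1.67 and -1.01), whose calls were kept in 2, 11 and 9 of the 14 fits that left out a library. With Dohh-/- replicate 1 alone, 10 of the 14 called members of the program kept their call, and Ahr, Ccl20, Ccr6 and Irf4 did not, and 8 of the 14 were kept whichever library was left out. Without Dohh, Il17a was high in libraries where Maf and Il6ra were low, and without Odc all 3 were low.

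TH1, cytotoxic and NK receptor genes were more positive with Dohh deletion. Of 19 TH1 genes tested, 10 (52.6%, against 7.13% of all genes) were more positive and 1 (5.26%, against 5.82%) more negative. The median difference was 1.09. Tbx21, which encodes the TH1 master regulator T-bet, had 9.56, 16.7, 24.0 and 12.3 CPM in Odc-/- and 2.88, 2.66, 4.95 and 3.30 in WT, and 98.5, 58.2 and 44.3 CPM in Dohh-/- and 3.43, 2.50 and 1.87 in WT. It was higher in every labelled library of both tables, and more so without Dohh (log2 2.17 without Odc and 4.66 without Dohh, difference 2.49, SE 0.51, adjusted p = 0.00322, edgeR). Ifng, encoding IFN-γ, had 90.9, 221, 245 and 143 CPM in Odc-/- and 7.71, 5.09, 9.11 and 23.5 in WT, and 357, 169.6 and 116 CPM in Dohh-/- and 2.23, 2.81 and 2.49 in WT. Labelled libraries of both tables were thus at similar levels, and the larger Dohh effect (log2 3.94 without Odc and 6.42 without Dohh, difference 2.47, adjusted p = 0.0395, edgeR) was set against WT libraries log2 -1.85 apart. The Ifng difference was kept in 6 of the 14 fits that left out a library, with adjusted p up to 0.0939. Ccl5, a chemokine of effector cells, passed with Dohh deletion alone (log2 0.43 without Odc and 3.09 without Dohh). Il12rb1, a chain of the IL-12 receptor, was the member that was more negative (log2 0.05 without Odc and -1.28 without Dohh).

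Of 12 cytotoxic granule genes, 7 (58.3%, against 7.13% of all genes) were more positive and 0 (against 5.82%) more negative. Gzmc, a granzyme, had 259.6, 231, 388 and 211 CPM in Odc-/- and 21.8, 10.3, 30.0 and 36.2 in WT, and 849, 441 and 715 CPM in Dohh-/- and 7.79, 5.93 and 3.12 in WT, all separate (log2 3.47 without Odc and 6.86 without Dohh, difference 3.39, SE 0.56, adjusted p = 0.00111, edgeR, WT levels log2 -2.03 apart). Gzmb, by contrast, had higher levels in Odc-/- (1563, 1902, 2160 and 1357 CPM) than in Dohh-/- replicates 2 and 3, whose group had 1419, 1036 and 285 CPM, and its positive difference (2.27, adjusted p = 0.0409, edgeR) rested on WT levels log2 -3.02 apart and was kept in 3 of the 14 fits that left out a library, with adjusted p up to 0.097. Of 12 NK receptor genes, 8 (66.7%, against 7.13% of all genes) were more positive and 0 (against 5.82%) more negative. Klri2, a killer cell lectin-like receptor, was opposed, with 15.4, 12.6, 11.4 and 14.4 CPM in Odc-/- against 21.9, 21.5, 20.1 and 24.1 in WT and 48.5, 40.0 and 16.6 CPM in Dohh-/- against 3.43, 3.95 and 3.61 in WT, without overlap (difference 3.96, SE 0.39, adjusted p = 1.73e-05, edgeR). Klre1 passed with Dohh deletion alone (log2 -0.39 without Odc and 2.94 without Dohh) and Klrc1 with both (log2 0.59 without Odc and 3.25 without Dohh), and WT levels of these receptors were lower in the Dohh table, by log2 -2.51, -2.20 and -1.63. With Dohh-/- replicate 1 alone, 9 of 11 called TH1 genes, 5 of 7 cytotoxic genes and 6 of 8 NK receptor genes kept their call, and 5, 4 and 6 kept it whichever library was left out. In WT libraries of the Dohh table the granzyme gene Gzmd had 0 CPM throughout and the NK receptor gene Klra3 0.343, 0.104 and 0.249 CPM. Both counted as expressed in that table through the Dohh-/- libraries alone, so that their Dohh effects could only be positive. Gamma-delta markers, given above, were higher along with the TH1, cytotoxic and NK receptor genes. Of the CD8 markers, Cd8a had 82.9, 144 and 155 CPM in Dohh-/- and 8.48, 4.89 and 6.73 in WT, against 42.9, 31.0, 40.4 and 24.8 in Odc-/- and 8.63, 4.51, 14.6 and 26.6 in its WT, while Cd8b1 had 12.6, 14.3 and 16.3 CPM in Dohh-/- and 18.0, 19.3 and 21.6 in WT, and so was lower in every Dohh-/- library. The part of these cells in the result was not tested.

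Interferon response genes were also more positive, with 12 of 26 (46.2%, against 7.13% of all genes) more positive and 0 (against 5.82%) more negative. Their median difference was 0.96. In WT libraries of the Dohh table Isg15 had 0.428, 0.832 and 0.374 CPM and Mx1 0.257, 0.104 and 0 CPM. These members counted as expressed in that table through the Dohh-/- libraries alone. The Dohh effect of such a gene could only be positive, which tilts the shares of the list. Gbp7, a guanylate-binding protein, passed with Dohh deletion alone (log2 0.28 without Odc and 3.38 without Dohh, difference 3.10, SE 0.41, adjusted p = 0.000182, edgeR, WT levels log2 -2.97 apart), and Iigp1, an immunity-related GTPase, with both (log2 1.35 without Odc and 4.55 without Dohh, WT levels log2 -2.00 apart). Ly6c2, also a surface marker of monocytes, rose most in the libraries with the most myeloid markers, with 37.8, 103 and 149 CPM in Dohh-/- replicates 1, 2 and 3 against 1.28, 1.04 and 0.872 in WT, and the part of those cells was not tested. With replicate 1 alone, 10 of the 12 kept their call.

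**Figure D4:**
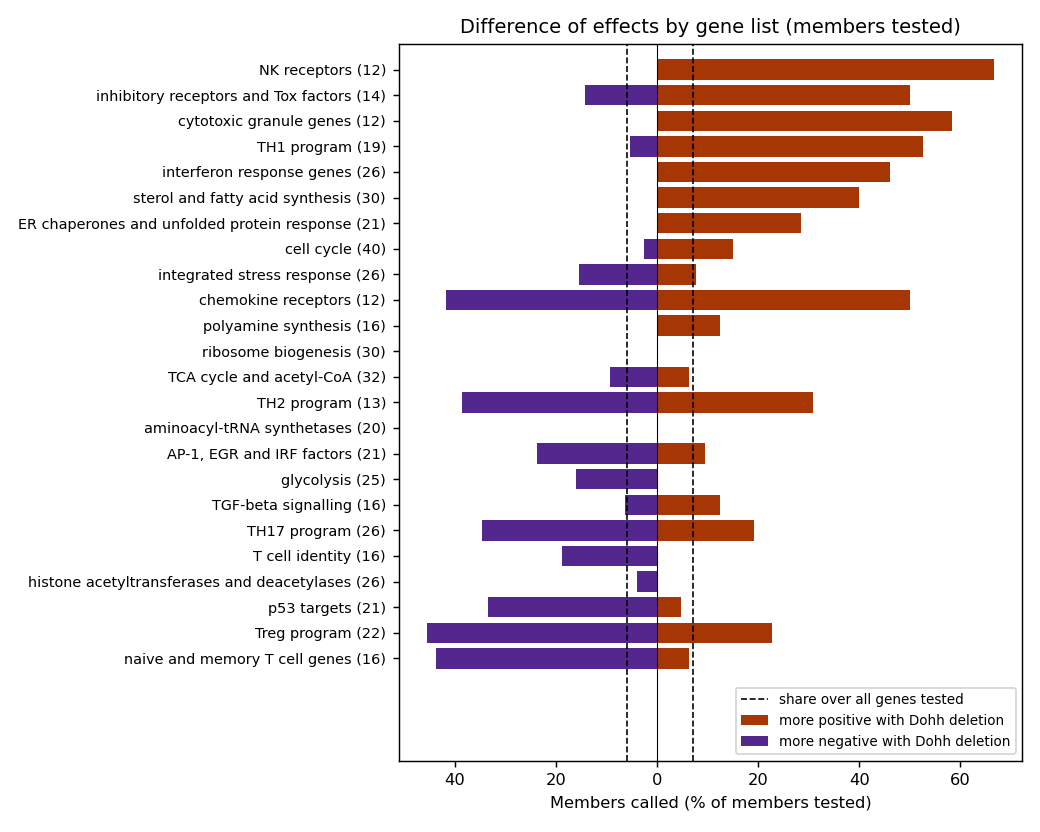
Share of the members tested in each gene list whose difference of effects passed the test, with members more positive with Dohh deletion to the right and more negative to the left. Numbers tested stand in brackets, and the dashed lines mark the shares over all genes tested (7.13% and 5.82%). NK receptor and cytotoxic genes reach 66.7% and 58.3% on the right, and Treg and naive T cell genes 45.5% and 43.8% on the left.

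The Treg program leaned to the other side, with 10 of 22 genes (45.5%, against 5.82% of all genes) more negative with Dohh deletion. Another 5 of its members (22.7%, against 7.13%) were more positive, and the median difference was -0.72. Besides Foxp3, its opposed members were Nrp1, a marker of thymic Treg cells, Socs2, a feedback inhibitor of cytokine signalling, Ikzf4, which encodes Eos, and a further gene that was too low in Dohh-/- to be named by the rule. Nrp1 had 64.4, 84.9, 46.4 and 91.8 CPM in Odc-/- against 17.9, 18.9, 15.0 and 36.2 in WT, and 11.7, 14.5 and 12.8 CPM in Dohh-/- against 33.1, 34.3 and 40.6 in WT, and its groups were separate in both tables (difference -3.17, SE 0.40, adjusted p = 0.000122, edgeR). Socs2 showed log2 0.79 without Odc and -1.53 without Dohh and Ikzf4 log2 0.57 without Odc and -0.87 without Dohh. Lrrc32, which presents latent TGF-β, fell in both and further without Dohh (log2 -1.66 without Odc and -4.70 without Dohh, WT levels log2 1.08 apart), and Izumo1r, the folate receptor 4, passed with Dohh deletion alone (log2 0.21 without Odc and -3.48 without Dohh, WT levels log2 1.20 apart), as did the ectonucleotidase Nt5e (log2 0.02 without Odc and -1.93 without Dohh, WT levels log2 1.49 apart). Ikzf2, which encodes Helios, ran against the list, with 59.3, 66.0 and 69.7 CPM in Dohh-/- against 6.00, 4.37 and 5.23 in WT and 21.3, 18.4, 17.5 and 23.5 CPM in Odc-/- against 16.1, 13.7, 17.4 and 14.5 in WT (difference 3.24, SE 0.21, adjusted p = 1.49e-06, edgeR). The Dohh-/- libraries lay far above all others, and WT levels were log2 -1.53 apart. In the Odc table the groups all but touched, at 17.49 CPM in the lowest Odc-/- and 17.43 in the highest WT library. Il10, an anti-inflammatory cytokine, rose in both and more without Odc (log2 2.57 without Odc and 1.13 without Dohh, difference -1.44, adjusted p = 0.0111, edgeR), from WT levels log2 -2.12 apart. With Dohh-/- replicate 1 alone, 12 of the 15 called members kept their call.

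Of 13 TH2 genes tested, 4 (30.8%, against 7.13% of all genes) were more positive and 5 (38.5%, against 5.82%) more negative. Gfi1, a repressor that favours TH2 growth, was opposed (log2 -0.94 without Odc and 0.69 without Dohh, difference 1.63, SE 0.27, adjusted p = 0.000817, edgeR), and its labelled libraries were separate from WT in both tables, at 26.1, 15.1, 28.9 and 17.8 against 40.5, 37.5, 39.8 and 50.3 CPM with Odc deletion and 42.9, 42.9 and 37.1 against 27.8, 25.2 and 23.3 CPM with Dohh deletion. Il13, a TH2 cytokine, showed log2 1.08 without Odc and 3.76 without Dohh, WT levels log2 -1.80 apart, while Gata3, the TH2 master regulator, did not pass the test of the difference (log2 0.00 without Odc and 0.63 without Dohh, WT levels log2 1.03 apart, difference 0.63, SE 0.33, adjusted p = 0.176, edgeR). Nfil3, a factor under circadian control, fell with Dohh deletion alone (log2 0.00 without Odc and -1.60 without Dohh, WT levels log2 1.14 apart). Of 14 genes of inhibitory receptors, the NR4A factors and the Tox factors, 7 were more positive (against 7.13% of all genes) and 2 (14.3%, against 5.82%) more negative. Pdcd1, which encodes PD-1, had 412, 274 and 277 CPM in Dohh-/- against 61.1, 63.8 and 49.8 in WT and 48.2, 85.0, 84.7 and 73.5 CPM in Odc-/- against 38.2, 34.2, 36.3 and 41.1 in WT (difference 1.50, SE 0.27, adjusted p = 0.00136, edgeR). Lag3 (log2 0.26 without Odc and 1.83 without Dohh, WT levels log2 1.04 apart) and Tigit (log2 -0.67 without Odc and 1.03 without Dohh) passed with Dohh deletion alone, as did the activation-induced receptors Nr4a2 (log2 0.15 without Odc and 1.76 without Dohh) and Nr4a3 (log2 -0.32 without Odc and 1.21 without Dohh). Btla, by contrast, fell in both and further without Dohh (log2 -0.63 without Odc and -2.35 without Dohh). Naive and memory T cell genes were more negative in 7 of 16 genes (43.8%, against 5.82% of all genes) and more positive in 1 (6.25%, against 7.13%), Id3, an inhibitor of E proteins. Igfbp4, an insulin-like growth factor binding protein, had 155, 166 and 226 CPM in Dohh-/- against 1474, 1734 and 1686 in WT, and 1251, 1424, 1219 and 1547 CPM in Odc-/- against 1540, 1632, 1668 and 1318 in WT. Only the Dohh libraries were thus separate from their WT libraries (difference -2.98, SE 0.21, adjusted p = 1.49e-06, edgeR), and Ccr7, the lymph node homing receptor, moved in the same manner (log2 0.01 without Odc and -2.31 without Dohh, WT levels log2 1.39 apart). Cxcr5, the receptor of follicular helper cells, was opposed (log2 1.70 without Odc and -1.55 without Dohh, WT levels log2 1.49 apart, difference -3.25, adjusted p = 0.00178, edgeR).

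Genes of sterol and fatty acid synthesis were lower without Odc and higher without Dohh more often than the reverse. Of 30 genes tested, 12 (40.0%, against 7.13% of all genes) were more positive with Dohh deletion and 0 (against 5.82%) more negative. A positive difference was seen in 26, and the median was 0.88, with median effects of -0.50 without Odc and 0.39 without Dohh. Of its members 6 were opposed, against 0.592% of all genes, all of them lower without Odc and higher without Dohh, and the list holds no gene opposed the other way. Hmgcs1 (chr13:119690379-119708260 in GRCm38), the first committed enzyme of the mevalonate pathway, had 131, 97.3, 111 and 102 CPM in Odc-/- and 185, 207, 181 and 229.9 in WT, and 274, 256 and 168 CPM in Dohh-/- and 98.4, 98.2 and 90.0 in WT. Its groups were separate in both tables (log2 -0.86 without Odc and 1.28 without Dohh, difference 2.15, SE 0.22, adjusted p = 2.75e-05, edgeR, WT levels log2 -1.06 apart). Fads2, a fatty acid desaturase, had 44.0, 16.6, 32.9 and 21.1 CPM in Odc-/- and 59.8, 62.7, 61.6 and 65.6 in WT, and 81.0, 59.8 and 18.8 CPM in Dohh-/- and 23.4, 20.5 and 18.8 in WT, so that Dohh-/- replicate 3 lay within its WT range (log2 -1.13 without Odc and 1.36 without Dohh, difference 2.48, adjusted p = 0.00567, edgeR, WT levels log2 -1.57 apart). Scd1, the stearoyl-CoA desaturase, passed with Odc deletion alone (log2 -1.26 without Odc and 0.91 without Dohh).

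Other opposed members, named after their values were seen, cover further steps of the pathway. Mvk, mevalonate kinase, showed log2 -0.83 without Odc and 0.48 without Dohh, and Msmo1, a methylsterol oxidase, log2 -0.47 without Odc and 0.91 without Dohh. Cyp51, lanosterol demethylase, had only a Dohh effect (log2 -0.16 without Odc and 1.65 without Dohh, difference 1.81, SE 0.18, adjusted p = 2.42e-05, edgeR) and Mvd, the decarboxylase that follows mevalonate kinase, only an Odc effect (log2 -0.86 without Odc and 0.29 without Dohh). Srebf2, which encodes the transcription factor SREBP2 that drives these genes, had effects of -0.41 and -0.41 and no difference that passed (adjusted p = 0.992, edgeR). With Dohh-/- replicate 1 as the only Dohh-/- library, 11 of the 12 called members kept their call, and 8 of the 12 kept it whichever library was left out.

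**Figure D5:**
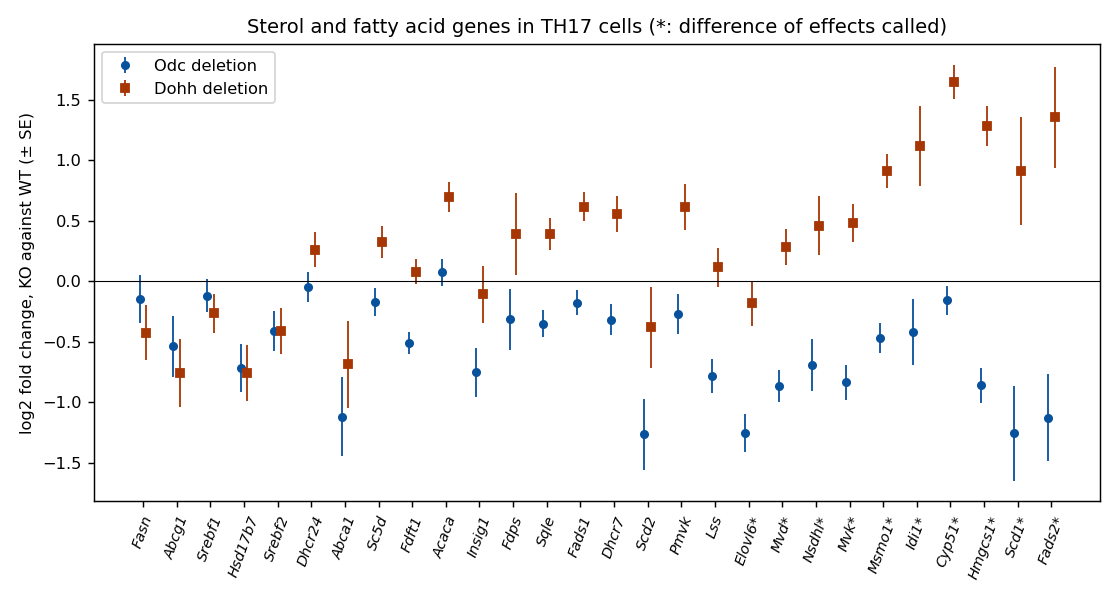
Effects of Odc deletion (circles) and Dohh deletion (squares) on the sterol and fatty acid genes tested and reported here, as log2FC with standard errors, ordered by their difference, with an asterisk where the difference passed the test. Toward the right the circles lie below 0 and most squares above it, with Hmgcs1 at -0.86 and 1.28.

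The 250 bases before the start of 3 opposed members of the sterol and fatty acid list are printed, 5′ to 3′, from RefSeq sequence of GRCm38.p6. Capitals mark CCAAT on either strand, the box bound by NF-Y next to SREBP sites, and in Hmgcs1 also the sterol regulatory element TCACNCCAC. The motifs do not overlap each other here.
Hmgcs1 (chr13:119690101-119690350, forward strand): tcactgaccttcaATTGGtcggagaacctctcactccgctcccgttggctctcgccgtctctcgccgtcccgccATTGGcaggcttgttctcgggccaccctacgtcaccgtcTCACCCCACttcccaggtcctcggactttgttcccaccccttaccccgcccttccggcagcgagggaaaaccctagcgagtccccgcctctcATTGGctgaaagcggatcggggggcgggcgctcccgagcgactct
Mvk (chr5:114444019-114444268, forward strand): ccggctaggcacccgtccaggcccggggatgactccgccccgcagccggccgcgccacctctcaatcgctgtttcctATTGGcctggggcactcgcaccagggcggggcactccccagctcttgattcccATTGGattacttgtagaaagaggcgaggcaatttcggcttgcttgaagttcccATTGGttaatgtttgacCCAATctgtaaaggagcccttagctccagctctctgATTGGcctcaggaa
Msmo1 (chr8:64733579-64733828, reverse strand): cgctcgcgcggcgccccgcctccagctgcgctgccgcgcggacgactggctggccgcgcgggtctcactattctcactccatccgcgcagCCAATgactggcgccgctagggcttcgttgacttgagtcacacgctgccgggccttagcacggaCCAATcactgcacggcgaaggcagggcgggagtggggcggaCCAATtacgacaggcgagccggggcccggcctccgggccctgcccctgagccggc
Of the 30 genes tested, 20 matched a RefSeq entry by symbol, with 25 windows. CCAAT was found in 17 of these windows (68.0%), in 33.8% of all windows and in 35.6% of the windows of all genes tested. TCACNCCAC was found in 1 of the 25 windows, that of Hmgcs1, and in 1.05% of all windows.

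p53 target genes were more negative with Dohh deletion in 7 of 21 genes (33.3%, against 5.82% of all genes). They were more positive in 1 (4.76%, against 7.13%), and the median difference was -0.47. Bbc3, which encodes the death effector PUMA, was opposed, with 16.4, 23.5, 18.1 and 22.8 CPM in Odc-/- against 8.87, 11.8, 13.4 and 11.4 in WT and 22.8, 17.0 and 25.0 CPM in Dohh-/- against 46.5, 37.4 and 43.0 in WT. Labelled libraries were above WT with Odc deletion and below WT with Dohh deletion, without overlap (difference -1.81, SE 0.25, adjusted p = 0.000262, edgeR, WT levels log2 1.89 apart). The death receptors Fas (log2 0.57 without Odc and -0.76 without Dohh) and Tnfrsf10b (log2 0.77 without Odc and -0.67 without Dohh), named after their values were seen, were opposed too. Cdkn1a, the cell cycle inhibitor p21, fell with Dohh deletion alone (log2 0.46 without Odc and -1.39 without Dohh, WT levels log2 1.20 apart, difference -1.85, SE 0.28, adjusted p = 0.000456, edgeR), Phlda3 rose with Odc deletion alone (log2 1.71 without Odc and -0.58 without Dohh, WT levels log2 1.27 apart), and Pmaip1, which encodes the death effector NOXA, was the member that was more positive (log2 -0.17 without Odc and 1.44 without Dohh, WT levels log2 -1.20 apart). With Dohh-/- replicate 1 alone, 6 of the 8 kept their call.

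Of 25 glycolysis genes, 4 (against 5.82% of all genes) were more negative with Dohh deletion and 0 (against 7.13%) more positive. Slc2a1, the glucose transporter GLUT1, fell with Dohh deletion alone, from 469, 464 and 663 CPM in WT to 177, 134 and 122 in Dohh-/-, while Odc-/- libraries had 282, 145, 180.4 and 183 and their WT 159, 185, 169.6 and 205 CPM and overlapped (difference -2.02, SE 0.29, adjusted p = 0.00036, edgeR, WT levels log2 1.55 apart). Eno2 (log2 -0.88 without Odc and -2.94 without Dohh) and Egln3, a prolyl hydroxylase of the hypoxia pathway (log2 -1.19 without Odc and -3.10 without Dohh), fell in both and further without Dohh, and Hk2, a hexokinase looked at after its values were seen, was opposed (log2 0.46 without Odc and -1.00 without Dohh). Of 32 genes of the TCA cycle and acetyl-CoA, 2 (6.25%, against 7.13% of all genes) were more positive and 3 (9.38%, against 5.82%) more negative, and the 2 were both opposed. Idh1, the cytosolic isocitrate dehydrogenase, had 26.1, 86.1 and 52.9 CPM in Dohh-/- against 18.3, 16.5 and 16.4 in WT, and 14.1, 6.64, 12.8 and 11.8 CPM in Odc-/- against 19.3, 20.9, 20.0 and 19.5 in WT (difference 2.50, adjusted p = 0.00132, edgeR). It was highest in Dohh-/- replicates 2 and 3, where myeloid markers were highest, and the difference was 1.42 with replicate 1 alone (adjusted p = 0.00678, edgeR). Acss1, the mitochondrial acetyl-CoA synthetase, showed log2 -1.58 without Odc and 0.88 without Dohh. It had 46.6, 59.9 and 108 CPM in Dohh-/- replicates 1, 2 and 3 against 44.1, 35.4 and 36.5 in WT. Replicate 1 was thus close to WT, and the part of myeloid cells in the values of Idh1 and Acss1 was not tested. Pcx, pyruvate carboxylase, fell in both and further without Dohh (log2 -0.94 without Odc and -2.72 without Dohh).

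Genes of the pathway of the targeted enzymes were looked at next. The lists of hypusine and of polyamine breakdown and transport are too short to be set against the 13.0% called over all genes. In the hypusine list, 0 of 4 genes passed by edgeR, DESeq2 or limma. An unadjusted p-value below 0.05 was found for 2 of the 4, against 4475 of the 11489 genes tested. Eif5a, the substrate of hypusination, had 1641, 1710, 1888 and 1670 CPM in Odc-/- against 1005, 1044, 1017 and 1425 in WT, and 1523, 1371 and 1770 CPM in Dohh-/- against 629.7, 703 and 677 in WT. It was higher in every labelled library of both tables, with a difference of 0.59 (SE 0.19, adjusted p = 0.0337, edgeR) that was below 2-fold. Differences were -0.08 (SE 0.18) for Dhps, -0.15 (SE 0.24) for Dohh itself and 0.08 (SE 0.22) for Odc1, with adjusted p of 0.773, 0.68 and 0.813 from edgeR. Of 6 genes of polyamine breakdown and transport, 0 passed by any of the 3 tools. An unadjusted p-value below 0.05 was found for 1 of the 6, against 4475 of 11489 over all genes. Of 16 genes of polyamine synthesis, 2 (12.5%, against 7.13% of all genes) were more positive and 0 (against 5.82%) more negative. Slc7a2, a transporter of arginine, was among the 2 that were more positive.

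It was also among the 8 named genes with the most positive difference, most of which are known from macrophages or mast cells. Slc7a2 had 13.4, 149 and 129.9 CPM in Dohh-/- replicates 1, 2 and 3 against 4.71, 1.04 and 2.12 in WT, and 9.56, 8.30, 12.6 and 9.03 CPM in Odc-/- against 15.7, 6.83, 20.8 and 5.24 in WT. Replicate 1 of Dohh-/- was the lowest of its group, and the Odc groups overlap. Chil3, a chitinase-like protein of activated macrophages, had 285, 10340 and 4717 CPM, and Mrc1, the macrophage mannose receptor, 0.663, 58.7 and 14.9 CPM in the same 3 libraries. Others were Car4, a carbonic anhydrase, Ccr1, a chemokine receptor of myeloid cells, Mcpt1, a mast cell protease, and Mmp12, a macrophage elastase. Differences of the genes named here ranged from 4.93 to 6.23, and WT levels were more than 2-fold apart for Slc7a2 (log2 -2.12), Chil3 (1.37), Mrc1 (-1.77), Ccr1 (-2.65) and Mmp12 (-1.21). With replicate 1 as the only Dohh-/- library, the differences were 2.60 for Slc7a2 (adjusted p = 0.0527, edgeR), 2.07 for Chil3 (adjusted p = 0.473) and 0.61 for Mrc1 (adjusted p = 0.738), and none of these 3 passed. The Chil3 difference was also kept in only 6 of the 14 fits that left out a library, with adjusted p up to 0.0677. Car4, Ccr1 and Mmp12 still passed in that fit, at 3.87, 3.05 and 2.35, and Mcpt1 did not. Of the marker lists themselves, 5 of 9 myeloid genes tested and 6 of 9 genes of basophils and mast cells were more positive, of which 0 and 3 kept their call with replicate 1 alone. Over all genes tested, 7.13% were more positive. Cpa3, at 0.514, 0.624 and 0.498 CPM in WT libraries of the Dohh table, counted as expressed there through the Dohh-/- libraries alone. Its Dohh effect could thus only be positive. The part of myeloid cells, basophils and mast cells in these values was not tested.

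Of 30 ribosome biogenesis genes and of 20 aminoacyl-tRNA synthetase genes, 0 passed in either direction by edgeR, DESeq2 or limma, with median differences of 0.19 and 0.14. At an unadjusted p-value below 0.05, 5 of the former and 6 of the latter did, against 4475 of the 11489 genes tested. Of 26 histone acetyltransferases and deacetylases, 1 (3.85%) was more negative, against 5.82% of all genes, and 0 more positive, against 7.13%. The member that passed was the coactivator Ncoa1, which fell with Dohh deletion alone (log2 -0.11 without Odc and -1.34 without Dohh).

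The difference was finally compared with that in the other polarized subsets, in a fit of all 55 libraries. The TH17 difference departed from the mean of the TH1, TH2 and Treg differences for 388 of 12924 genes (3.00%), 173 more positive (1.34%) and 215 more negative (1.66%) in TH17 cells. Of the 1488 genes whose difference passed in TH17 cells, 201 departed, and of the 182 opposed genes 44. Both sets were picked by their TH17 difference, so these counts cannot be set against the 3.00%. The difference of the 182 had the same sign for 151 in TH1, 143 in TH2 and 169 in Treg cells. It had that sign and passed for 53, 63 and 115, where 1491, 1324 and 2275 of the 12924 genes passed in either direction. The Il17a difference did not pass this test (TH17 minus the others 0.53, adjusted p = 0.833, edgeR), nor did that of Tbx21 (0.91, adjusted p = 0.48). Foxp3 departed (-2.44, adjusted p = 0.0312), as did Lhx6 (-4.15, adjusted p = 0.00207), Il10 (-3.80, adjusted p = 1.22e-05) and Hmgcs1 (1.25, adjusted p = 0.0231, all edgeR). A departure from this mean does not make a difference particular to TH17 cells. The Foxp3 difference was -3.38 in TH1 (adjusted p = 0.00108, edgeR), -1.16 in TH2 (adjusted p = 0.329) and -2.17 in Treg cells (adjusted p = 0.000954). In Treg cells the Lhx6 difference was -6.69 and that of Hmgcs1 1.59, while the Il10 difference was positive in the other 3 subsets, at 2.28, 2.75 and 2.02. In the Treg program 8 of 22 genes departed, against 2 of 26 in the TH17 program. Slc2a1 (-2.20, adjusted p = 0.000265), Cdkn1a (-2.09, adjusted p = 1.05e-06) and Ikzf2 (2.16, adjusted p = 0.00525) were further such genes. Whether same-numbered libraries of several subsets come from 1 mouse is not given, and with such a block 667 genes departed. The count was 669 without Dohh-/- replicate 1 and 246 without replicate 3.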

How the data were processed

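A stranded kit was used to make the mRNA libraries, and the submitters' processing notes name deepTools, STAR, featureCounts, DESeq2 and mm10. The counts deposited by the authors are raw reads per gene, without normalization, in 2 tables that were read as deposited. All 55 columns matched 1 of 56 labelled samples, and 1 TH2 Odc-/- library was not analysed here. Genes were placed and named with the GENCODE vM21 annotation of GRCm38, in which 47310 of 47937 identifiers were found, and whether counting used strand is not given in the sources used here. Total counts ranged from 5905374 to 11768921 in the 14 TH17 libraries. A count of 0 allows up to 3 counts, or 0.257 to 0.514 CPM. This floor covers counting error only, since reads carry no molecular identifiers.

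Genes passing filterByExpr in the TH17 libraries of each table were fitted in 1 model with 4 group means (edgeR 4.0.16 in R 4.3.3, TMM, robust quasi-likelihood test), and p-values were adjusted by Benjamini and Hochberg over all 11489 genes. The filter could be passed in a table through its labelled libraries alone or its WT libraries alone. A gene that passed through the labelled libraries alone could only have a positive effect in that table. One that passed through the WT libraries alone could only have a negative effect. CPM are counts divided by the TMM-scaled library total. The samples are described as biological replicates, and not every same-numbered pair of WT and labelled libraries deviated together. Named genes were protein-coding, called, and had a mean count of at least 10 in each group. They were the 8 most positive and 8 most negative differences, the 6 opposed genes per direction with the largest smaller effect, called members of the TH17, TH1, TH2, Treg, cytotoxic, inhibitory receptor, polyamine and hypusine lists, at most 3 of each other list, and 11 genes always named. Some genes that the rule names, and their values, are not reported here. The comparison, lists and rule were chosen with earlier results of these data known. Alternatives were RLE factors, DESeq2 1.42.0, voom of limma 3.58.1 with quality weights, other filters and thresholds, a replicate block, all libraries, and each library left out.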

Additional observations from a re-analysis of the deposited data

Results flagged for a closer look

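In 22 of 250 groups of 4 libraries (125 named genes in the Odc table), 1 library lay far from the other 3 by Dixon's criterion, which chance meets in about 1 in 20 groups. Of these, 13 concerned replicate 4 of the WT libraries, which was the highest of its group in CPM at 70.5 for Cdc6, 1425 for Eif5a, 709.7 for Hsp90b1, 12.2 for Iigp1, 5.69 for Nupr1, 71.6 for Sdf2l1 and 58.3 for Tyms, and the lowest at 243 for Fosl2, 105 for Il6ra, 42.8 for Il6st, 9.45 for Klre1, 19.7 for Lbp and 138 for Smad3. Replicate 3 of Odc-/-, the Odc-/- library with the most myeloid markers, accounted for 6. It was the highest at 104 for Chil3, 27.0 for Ly6c2, 46.7 for mt-Nd6, 6.37 for Pkib and 10.3 for Slc7a11, and the lowest at 73.7 for Izumo1r. WT replicate 2 was the highest at 734 for Egln3 and the lowest at 1.27 for Ly6c2, and Odc-/- replicate 1 was the lowest at 41.1 for Itgae. Groups of 3 were not tested.

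Over all genes tested in the fit of all subsets, 388 of 12924 (3.00%) departed in TH17 cells. Named genes were mostly picked by their TH17 difference, so their share cannot be set against this one. For 25 of the 125 named genes the difference of effects in TH17 cells departed from the mean difference of the TH1, TH2 and Treg subsets by a direct test (edgeR, TH17 minus the others on the log2 scale). It was more positive in TH17 cells for Cd83 (3.59, adjusted p = 0.00394), Cxcr3 (2.31, adjusted p = 0.000241), Dgat2 (2.26, adjusted p = 0.0147), Gbp7 (1.66, adjusted p = 0.0494), Gfi1 (1.68, adjusted p = 0.00519), Hmgcs1 (1.25, adjusted p = 0.0231), Ikzf2 (2.16, adjusted p = 0.00525), Il6ra (1.71, adjusted p = 0.0206), Pkib (3.84, adjusted p = 0.0018), Slc7a2 (4.18, adjusted p = 0.0283) and Tox (2.54, adjusted p = 0.0319). It was more negative for Angptl2 (-2.15, adjusted p = 0.00835), Atp1b1 (-3.69, adjusted p = 0.00538), Cdkn1a (-2.09, adjusted p = 1.05e-06), Fosl1 (-1.74, adjusted p = 0.0231), Foxp3 (-2.44, adjusted p = 0.0312), Gad2 (-2.90, adjusted p = 0.0439), Igfbp4 (-1.60, adjusted p = 0.00268), Il10 (-3.80, adjusted p = 1.22e-05), Il12rb1 (-1.50, adjusted p = 0.0018), Lhx6 (-4.15, adjusted p = 0.00207), Nfil3 (-2.33, adjusted p = 9.37e-05), Nt5e (-2.00, adjusted p = 0.00976), Prss46 (-4.67, adjusted p = 0.00397) and Slc2a1 (-2.20, adjusted p = 0.000265). For Atp1b1 the difference in Treg cells was -5.53 (adjusted p = 6.71e-09, edgeR), against -5.73 in TH17 cells, and those in TH1 and TH2 cells were 0.02 and -0.62. The Lhx6 differences were -6.69 in Treg, -0.18 in TH1 and -0.20 in TH2 cells. Those of Angptl2 were -3.76 in Treg, -2.28 in TH2 and -1.05 in TH1 cells. For Gad2 they were -3.62 in TH2, -1.83 in TH1 and 0.54 in Treg cells. A departure from the mean thus does not make a difference particular to TH17 cells.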

How the results depend on the processing

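Of 819 genes more positive, 669 more negative, and 68 and 114 opposed (higher and lower without Dohh), counts stayed within 1.5 times with RLE factors, DESeq2, other filters and all libraries fitted, and the opposed counts moved to 188 and 185 with limma's voom. A direct test against a 2-fold difference gave 136, 187, 22 and 62, adjusted p alone 1582 more positive and 1357 more negative, and an adjusted p below 0.01 466 more positive and 27 and 52 opposed. With each own effect also above 2-fold, 14 and 45 were opposed. The cause of these shifts is the stricter or looser threshold, except for voom, where it was not tested. With any library left out the counts were 664 to 1088, 600 to 784, 41 to 110 and 72 to 142. Genes opposed and higher without Dohh numbered 110 without Dohh-/- replicate 1, 103 without its replicate 3, and 45 and 41 without WT replicates 1 and 3 of the Odc table, and genes opposed the other way 72 without Odc-/- replicate 2. Against the other subsets, 388 genes became 32 when tested against 2-fold and 246 to 669 with a TH17 library left out. Only Lyz2 changed sign among called named genes, to -0.32 (adjusted p = 0.871, edgeR) with Dohh-/- replicate 1 alone.

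Not every pair of WT and labelled libraries of the same number deviated together (correlations 0.18, -0.11, 0.21 and 0.13 for Odc, and 0.03, 0.00 and -0.02 for Dohh), 3 of the 4 Odc pairs being above 0.1, and the libraries were treated as sharing only a number. With the replicate number as a block, 739, 640, 65 and 97 genes passed, and 667 departed from the other subsets, where the block is the number within table and genotype.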

Other observations

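Genes of protein folding in the endoplasmic reticulum were more positive with Dohh deletion in 6 of 21 cases (28.6%, against 7.13% of all genes). They were more negative in 0 cases (against 5.82%), and the median difference was 0.68. Sdf2l1, a component of a chaperone complex, had 87.2, 99.2, 121 and 108 CPM in Odc-/- and 34.4, 40.1, 38.8 and 71.6 in WT, and 134, 125 and 75.2 CPM in Dohh-/- and 17.1, 19.4 and 15.1 in WT, and rose in both (log2 1.17 without Odc and 2.69 without Dohh, WT levels log2 -1.36 apart, difference 1.53, SE 0.35, adjusted p = 0.00579, edgeR). With Dohh-/- replicate 1 alone, 2 of the 6 kept their call, and 1 of the 6 kept it whichever library was left out. Among 40 cell cycle genes, 6 (15.0%, against 7.13% of all genes) were more positive and 1 (2.50%, against 5.82%) more negative. Tyms, the thymidylate synthase, had 60.0, 76.2, 94.3 and 71.7 CPM in Odc-/- and 28.3, 30.6, 32.4 and 58.3 in WT, and 81.1, 85.0 and 101 CPM in Dohh-/- and 11.2, 12.0 and 10.7 in WT, without overlap (log2 1.01 without Odc and 2.98 without Dohh, WT levels log2 -1.65 apart, difference 1.96, SE 0.32, adjusted p = 0.000684, edgeR). Of the 7 cell cycle calls, 2 were kept whichever library was left out.

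Factors of the AP-1, EGR and IRF families were more negative in 5 of 21 genes (23.8%, against 5.82% of all genes) and more positive in 2 (9.52%, against 7.13%). Fosl2, an AP-1 subunit, fell in both and further without Dohh (log2 -1.60 without Odc and -3.13 without Dohh, difference -1.54, SE 0.37, adjusted p = 0.00887, edgeR), and its difference was -1.18 (adjusted p = 0.119, edgeR) with Dohh-/- replicate 1 alone. Of 26 genes of the integrated stress response, 2 (7.69%, against 7.13% of all genes) were more positive and 4 (15.4%, against 5.82%) more negative, and 3 of the 6 kept their call with Dohh-/- replicate 1 alone. Nupr1, a stress-induced nuclear protein, rose with Odc deletion alone (log2 2.94 without Odc and -0.08 without Dohh, WT levels log2 1.35 apart, difference -3.02, SE 0.83, adjusted p = 0.0177, edgeR), at 8.64, 31.8, 13.2 and 21.0 CPM in Odc-/- against 1.38, 1.39, 1.24 and 5.69 in WT and 1.88, 5.49 and 8.39 CPM in Dohh-/- against 6.25, 3.95 and 6.11 in WT. Smad3, which carries TGF-β signals, fell in both and further without Dohh (log2 -0.99 without Odc and -2.58 without Dohh, difference -1.58, SE 0.36, adjusted p = 0.00576, edgeR), although with Dohh-/- replicate 1 alone the difference was -1.10 (adjusted p = 0.0512, edgeR).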
